A study of Mus musculus with 19 samples.

Results

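The 2 ribosomal RNAs of the mouse mitochondrial genome, mt-Rnr1 (ENSMUST00000082388) and mt-Rnr2 (ENSMUST00000082390), were followed through FMRP CLIP libraries of the hippocampal CA1 region. They were taken by transcript ID, and both were found among the 49932 transcripts listed in any of the 19 libraries. FMRP is an RNA-binding protein lost in fragile X syndrome, and CLIP sequences, as tags, the RNA fragments that ultraviolet light has fixed to a protein. All groups are labelled Camk2a-Cre x Fmr1 cTag, a genotype in which the purification tag on FMRP depends on Cre driven by the Camk2a promoter, and cell type Camk2a-Cre+. The opto libraries came from tissue given AAV-ChR2, a virus carrying a light-gated channel, and the control libraries from tissue given AAV-Control, with 4 opto and 4 control libraries at 5 min and the same numbers at 30 min after activation. A further 3 libraries are titled and treated noCre, although their other labels repeat the Cre-positive genotype and cell type, and give no time. Age is not among the labels, and slices of every group were handled in cycloheximide, which stalls cytoplasmic ribosomes. Nothing in the labels says that replicates came from separate animals, so p-values measure the spread between these libraries, which may be technical. The files pair no other transcript ID with a gene, so the labelled cell type was not checked against marker genes.

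Mitochondria make a small set of proteins on ribosomes of their own. mt-Rnr1 is the 12S rRNA, the core of the small subunit of that ribosome, and mt-Rnr2 is the 16S rRNA, the core of the large subunit. Both are transcribed from mitochondrial DNA, are not translated, and lie inside the organelle, whereas FMRP is best known as a cytoplasmic protein that binds mRNAs on polyribosomes. In the RefSeq annotation of GRCm38.p6 (the files' build is mm10, per the submitters' processing notes) mt-Rnr1 spans MT:70-1024 (955 bases) and mt-Rnr2 spans MT:1094-2675 (1582 bases). They are the only 2 rRNA genes among the 37 genes listed on MT, beside 13 protein-coding and 22 tRNA genes. The tRNA gene TrnV (MT:1025-1093) lies between them, TrnF (MT:1-68) before mt-Rnr1 and TrnL1 (MT:2676-2750) after mt-Rnr2. Nuclear chromosomes carry copies of mitochondrial DNA, and how tags that match several places were assigned is not given in the sources used here, so the counts of both rRNAs are uncertain to that extent.

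Library totals ranged from 20456 to 341445 tags in the 16 Cre-positive libraries and were 887, 34 and 5557 in noCre. Of the 4 Cre-positive groups, opto at 30 min had the fewest tags, with a geometric mean total 0.299 of that of its controls. Tags per transcript carry no molecular identifiers in the files, and how duplicates were handled is not given. Intervals on the share or ratio of a single library cover counting error only, with each tag taken as independent. They would be too narrow if tags include copies of the same fragment.

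The 16 Cre-positive libraries held 8579 tags of mt-Rnr1 and 17269 of mt-Rnr2, which is 0.401% and 0.808% of their pooled tags. mt-Rnr1 had 74 to 1019 tags per library, with a median of 552. The 30 min controls had 467, 599, 487 and 619 tags of mt-Rnr1 in replicates 1 to 4, or 0.572%, 0.311%, 0.359% and 0.342% of the library. The opto libraries at 30 min had 215, 74, 453 and 266 tags, or 1.05%, 0.252%, 0.371% and 0.638%. Opto had fewer mt-Rnr1 tags than the same-numbered control in 4 of 4 pairs but a higher share in 3 of 4, and the shares of the groups overlapped. The 5 min controls had 856, 281, 507 and 1019 tags, or 0.251%, 0.699%, 0.465% and 0.488%. The opto libraries at 5 min had 758, 597, 747 and 634 tags, or 0.295%, 0.608%, 0.385% and 0.749%. Each group at 5 min thus held libraries with low and with high shares, and the groups overlapped here too.

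The share of mt-Rnr2 followed that of mt-Rnr1 from library to library. The 30 min controls had 869, 1332, 1069 and 1415 tags, or 1.07%, 0.692%, 0.789% and 0.781%. The opto libraries at 30 min had 407, 173, 1014 and 587 tags, or 1.99%, 0.589%, 0.831% and 1.41%. Opto replicate 1 held the highest share of both rRNAs among all 16 libraries, while opto replicate 2 held fewer tags of both than any other Cre-positive library. The 5 min controls had 1673, 590, 879 and 1945 tags, or 0.490%, 1.47%, 0.806% and 0.931%. The opto libraries at 5 min had 1436, 1231, 1472 and 1177 tags, or 0.559%, 1.25%, 0.758% and 1.39%. Over the 16 libraries the log2 shares of the 2 rRNAs correlated at 0.978 (Pearson) and 0.965 (Spearman), given as a description because both come from the same libraries.

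**Figure D1:**
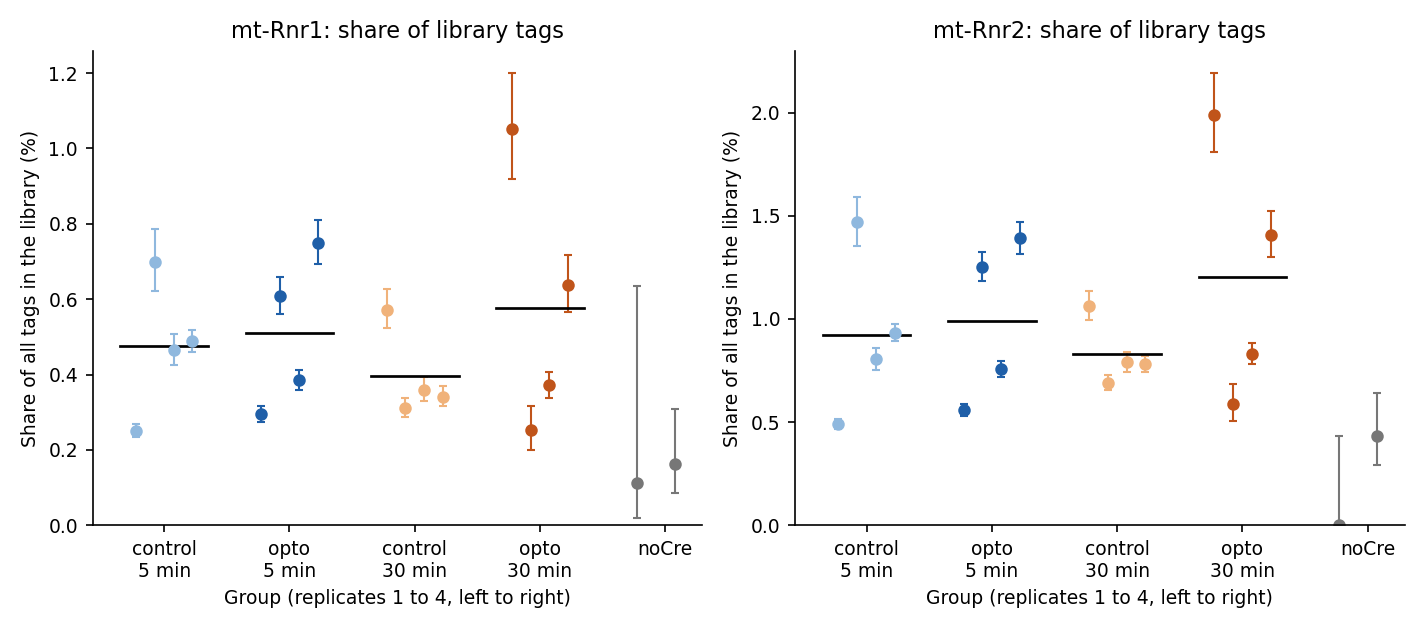
Share of each library's tags (%) that belong to mt-Rnr1 (left) and mt-Rnr2 (right). Points are libraries, with replicates 1 to 4 from left to right, bars are 95% Wilson intervals and lines are group means. noCre replicate 2, with 34 tags, is not drawn. The groups overlap, and the opto libraries at 30 min spread from 0.252% to 1.05% for mt-Rnr1 and from 0.589% to 1.99% for mt-Rnr2.

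Group means of the share put the 30 min controls lowest and the opto libraries at 30 min highest for both rRNAs. For mt-Rnr1 they were 0.396% ± 0.119 in the 30 min controls, 0.476% ± 0.183 in the 5 min controls, 0.509% ± 0.207 in opto at 5 min and 0.578% ± 0.354 in opto at 30 min (SD, n = 4 each). For mt-Rnr2 the means in the same order were 0.832% ± 0.162, 0.924% ± 0.408, 0.990% ± 0.395 and 1.20% ± 0.626 (SD, n = 4 each). Each step between neighbours in this order was smaller than the larger of their SDs. The biological coefficient of variation, edgeR's measure of spread beyond counting error, was 0.346 for mt-Rnr1 and 0.331 for mt-Rnr2, against a median of 0.172 over the 2871 tested transcripts, and 97.4% and 96.7% of these had a lower value. The trend that edgeR fits over tag levels was 0.206 and 0.210 at the levels of the 2 rRNAs. That fit holds group means only, so variation with the library total counts towards this spread. A share of CLIP tags is not a measure of RNA amount. Numbers of cells with tagged FMRP, rRNA per cell, its recovery with FMRP, background and the library's other tags cannot be told apart.

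Activation was compared in 1 fit of the 16 libraries with edgeR's quasi-likelihood test, in which both rRNAs passed the filter on low counts and p was adjusted over all 2871 tested transcripts by Benjamini-Hochberg. At 30 min neither rRNA passed an adjusted p of 0.05. mt-Rnr1 had a log2 difference, opto over control, of 0.52 (SE 0.35, 95% interval -0.20 to 1.24, edgeR adjusted p = 0.676) and mt-Rnr2 of 0.52 (SE 0.34, 95% interval -0.16 to 1.21, edgeR adjusted p = 0.652). In this comparison 1 transcript, or 0.0348% of those tested, passed. With the replicate number as a block 9 of 2871 passed, neither rRNA among them. The log2 differences in that fit were 0.40 for mt-Rnr1 (95% interval 0.05 to 0.74, edgeR adjusted p = 0.440) and 0.40 for mt-Rnr2 (95% interval 0.06 to 0.73, edgeR adjusted p = 0.409), with both intervals above 0 before adjustment. The sign of both differences turned when the log2 library total entered the fit as a covariate, to -0.38 for mt-Rnr1 and -0.32 for mt-Rnr2 (edgeR adjusted p = 0.952 for both). Without opto 30 min replicate 1 the differences were 0.046 and 0.14, and without opto 30 min replicate 2 they were 0.77 (95% interval 0.08 to 1.46) and 0.75 (95% interval 0.09 to 1.42), with an edgeR adjusted p of 0.592 for both. Without the block and with all 16 libraries, the intervals reached both sides of 0.

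At 5 min the differences between opto and control were smaller than their errors. The log2 difference was 0.11 for mt-Rnr1 (SE 0.34, 95% interval -0.59 to 0.82) and 0.11 for mt-Rnr2 (SE 0.33, 95% interval -0.57 to 0.79), with an edgeR adjusted p of 1.00 for both. Opto was higher in 2 of 4 same-numbered pairs for each rRNA. Of all tested transcripts 0 (0%) passed here in edgeR's test, with 53 of 2871 at an unadjusted p under 0.05, and DESeq2 also called 0. Without control 5 min replicate 1, the deepest library, the log2 differences were -0.10 and -0.10. They were also below 0 for both rRNAs without opto 5 min replicate 4, at -0.13 and -0.095, and for mt-Rnr2 without opto 5 min replicate 2, at -0.014.

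The response at 30 min minus that at 5 min was 0.41 on the log2 scale for mt-Rnr1 (SE 0.49, edgeR adjusted p = 0.878) and 0.41 for mt-Rnr2 (SE 0.47, edgeR adjusted p = 0.878), in a test that 1 of 2871 transcripts (0.0348%) passed and that 5 passed with the replicate block. With the library total as a covariate it was -0.52 and -0.49. Without opto 30 min replicate 1, the library with the highest share of both rRNAs, it was -0.079 for mt-Rnr1 and 0.015 for mt-Rnr2.

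Time was compared within each treatment, where it coincides with a label that marks the 5 min files as new, so the time and the deposit cannot be told apart. Between the control groups the log2 difference, 5 min over 30 min, was 0.23 for mt-Rnr1 (SE 0.34, edgeR adjusted p = 0.945) and 0.12 for mt-Rnr2 (SE 0.33, edgeR adjusted p = 0.994), and 0.174% of tested transcripts passed. Both turned below 0, to -0.032 and -0.21, without control 5 min replicate 2. Between the opto groups it was -0.18 for mt-Rnr1 (SE 0.35, edgeR adjusted p = 0.855) and -0.29 for mt-Rnr2 (SE 0.33, edgeR adjusted p = 0.727), and 0.244% of tested transcripts passed. These turned above 0, to 0.69 and 0.51, with the library total as a covariate, and to 0.28 and 0.083 without opto 30 min replicate 1. For mt-Rnr1 the difference was also above 0, at 0.062, without opto 5 min replicate 1. Comparisons that share a group of libraries are not independent of each other. In the order of the group means, no neighbours thus differed beyond their spread for either rRNA in the fit with group means only.

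**Figure D2:**
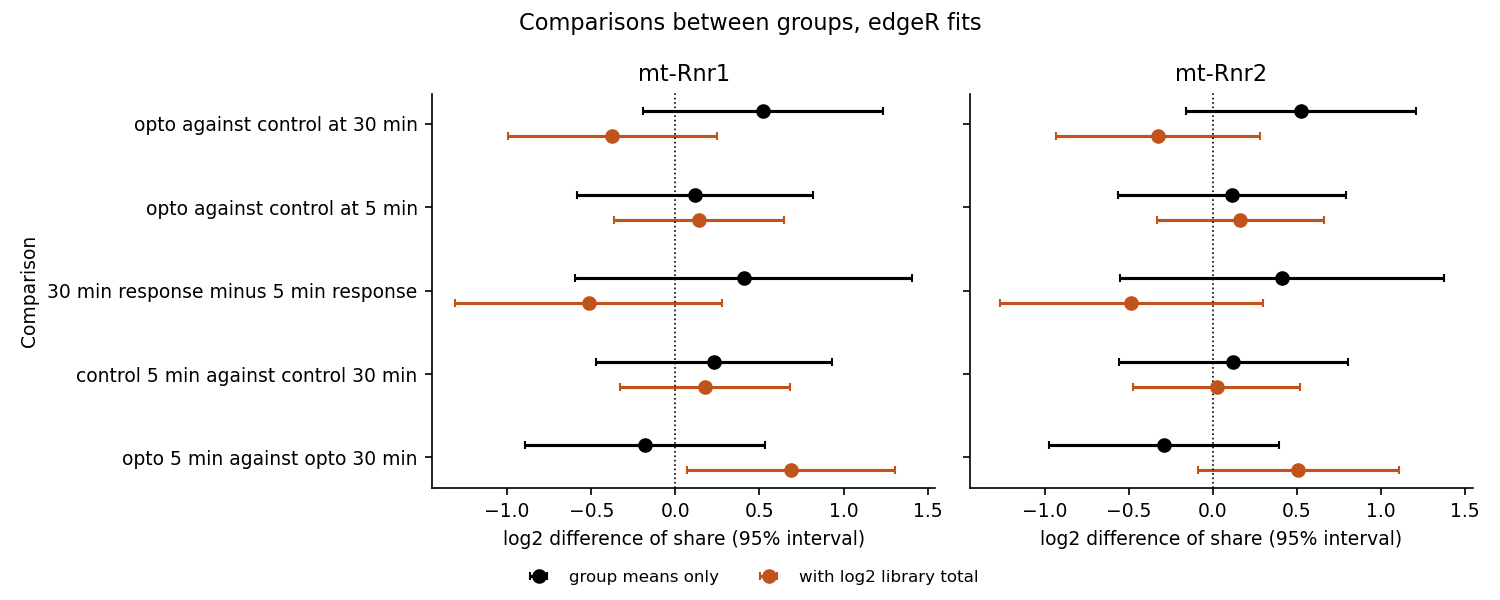
Difference of the log2 share of mt-Rnr1 (left) and mt-Rnr2 (right) in 5 comparisons between groups, from edgeR fits with group means only (black) and with the log2 library total as a covariate (orange). Points are estimates and bars 95% intervals. With group means only, each interval crosses 0. With the covariate, the interval of mt-Rnr1 for opto at 5 min against 30 min lies above 0 before adjustment. With the covariate the point of opto against control at 30 min moves from 0.52 to -0.38 for mt-Rnr1 and from 0.52 to -0.32 for mt-Rnr2.

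The noCre libraries give the background of the purification, as far as their title and treatment are right. mt-Rnr1 had 1, 0 and 9 tags and mt-Rnr2 had 0, 1 and 24 tags in noCre replicates 1 to 3, against at least 74 and 173 in each Cre-positive library. In replicate 3, the deepest, mt-Rnr1 made up 0.162% of the tags (95% Wilson interval 0.0852 to 0.308%) and mt-Rnr2 0.432% (95% Wilson interval 0.290 to 0.642%). Both values lay below the lowest Cre-positive share, 0.251% and 0.490%, but both intervals reached past it. In replicate 1 a single tag of mt-Rnr1 was 0.113% (95% Wilson interval 0.0199 to 0.636%), and 0 tags of mt-Rnr2 allow a share of up to 0.338%, which is below every Cre-positive library. In replicate 2 a single tag of mt-Rnr2 was 2.94% (95% Wilson interval 0.521 to 14.9%), and 0 tags of mt-Rnr1 allow up to 8.82%, so that this library sets no useful limit.

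Pooled, mt-Rnr1 held 0.154% of the 6478 noCre tags and mt-Rnr2 0.386%, which is 0.385 and 0.478 of their shares in the pooled Cre-positive tags. The median of this ratio over the 2871 tested transcripts was 0.360, but 48.2% of them had 0 noCre tags, and 35.7% had a larger share in noCre than in the Cre-positive pool, while neither rRNA did. Among the 1487 tested transcripts with any noCre tag, 4.84% had a lower ratio than mt-Rnr1 and 8.14% a lower ratio than mt-Rnr2. Counting those with 0 noCre tags as lower, the percentages were 50.7% and 52.4%. With only 6478 noCre tags, a single tag gives a scarce transcript a high ratio, and 0 tags give it a ratio of 0. These percentages, and the 35.7% above, thus depend on abundance and do not rank the background of the rRNAs. Each of the 3 noCre libraries was then weighted equally. The log2 difference from the 16 Cre-positive libraries was -0.38 for mt-Rnr1 (exact two-sided permutation p = 0.476) and -0.95 for mt-Rnr2 (exact two-sided permutation p = 0.218), and neither passed 0.05 in a design whose smallest p is 0.00103. This result rested on noCre replicate 2, with its 34 tags. Without it the log2 differences were -1.41 and -2.54, each with an exact permutation p of 0.00654, the smallest possible with 2 noCre libraries. As 0.5 was added to each count, the size of -2.54 rests partly on the 0 tags of mt-Rnr2 in replicate 1. The log2 differences were above 0 without noCre replicate 1, at 0.13 and 0.58, and, for mt-Rnr1, without noCre replicate 3, at 0.12. In replicate 2 the added 0.5 turns 0 tags of mt-Rnr1 among 34 into a share above every Cre-positive library. Each log2 value of mt-Rnr1 that includes replicate 2, -0.38 among them, thus depends on this added 0.5.

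Tags of both rRNAs grew more slowly than the library over the 16 Cre-positive libraries. The totals spanned 16.7-fold, tags of mt-Rnr1 13.8-fold and tags of mt-Rnr2 11.2-fold, and the shares differed by up to 4.19-fold and 4.06-fold. In the opto group at 5 min the totals spanned 3.03-fold, while tags of mt-Rnr1 spanned 1.27-fold and tags of mt-Rnr2 1.25-fold. In the 5 min controls the totals spanned 8.50-fold, tags of mt-Rnr1 3.63-fold and tags of mt-Rnr2 3.30-fold. In the 30 min controls the spans were 2.36-fold, 1.33-fold and 1.63-fold. In opto at 30 min tags and totals spanned alike, with 5.96-fold for the totals, 6.12-fold for mt-Rnr1 and 5.86-fold for mt-Rnr2. In 4 of 4 groups the shallowest library held the highest share of each rRNA, and in 3 of 4 the deepest held the lowest. The exception was opto at 30 min, where replicate 2, with 29396 tags, held the lowest share.

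The slope of log2 tags on the log2 of all other tags of the library, which is 1 where the share is constant, was 0.68 for mt-Rnr1 (SE 0.11) and 0.66 for mt-Rnr2 (SE 0.09). The log2 share of mt-Rnr1 fell with the log2 total, at a Pearson r of -0.623 (permutation p = 0.0109, adjusted 0.0180, n = 16) and a Spearman rho of -0.618 (permutation p = 0.0120, adjusted 0.0180). For mt-Rnr2 these were -0.692 (permutation p = 0.00344, adjusted 0.0111, n = 16) and -0.694 (permutation p = 0.00370, adjusted 0.0111), with all p adjusted by Benjamini-Hochberg over 6 tests. Without the 2 libraries farthest from the median total, opto 30 min replicates 1 and 2, the Pearson correlations were -0.860 and -0.903 and the slopes 0.53 and 0.51.

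The relation was checked within times and groups, because depth differed between them. Among the 8 libraries at 5 min the slopes were 0.49 for mt-Rnr1 (Pearson correlation -0.889, exact permutation p = 0.00308) and 0.47 for mt-Rnr2 (-0.895, exact permutation p = 0.00260). Among the 8 at 30 min they were 0.69 (-0.563, exact permutation p = 0.146) and 0.73 (-0.578, exact permutation p = 0.134), which did not pass, and the difference between the times was not tested. With the group means removed the slopes were 0.53 for mt-Rnr1 (permutation within groups, p = 0.0108) and 0.55 for mt-Rnr2 (permutation within groups, p = 0.0115), pooled over the 4 groups. Fitted in each group alone, with 4 libraries and no test, the slopes of mt-Rnr1 were 0.64 in opto and 0.32 in control at 30 min, and 0.21 in opto and 0.59 in control at 5 min. Those of mt-Rnr2 were 0.70, 0.55, 0.20 and 0.56 in the same order, so that each was below 1. Over all tested transcripts, deviations of same-numbered opto and control libraries from their group means correlated at 0.0915 to 0.332. Both rRNAs deviated in opposite directions in replicate 4 at 30 min, and mt-Rnr1 also in replicate 3 at 5 min. In the other pairs each rRNA deviated in the same direction. With the means of same-numbered libraries as 8 units the slopes were 0.58 for mt-Rnr1 (Pearson, exact permutation p = 0.0738) and 0.55 for mt-Rnr2 (Pearson, exact permutation p = 0.0305). By Spearman correlation the exact permutation p was 0.0962 for mt-Rnr1 and 0.0694 for mt-Rnr2, and neither passed. Single opto libraries at 30 min mattered most. Without replicate 1, the shallowest of all, the slope was 0.76 for mt-Rnr1 (permutation p = 0.0770, n = 15) and 0.72 for mt-Rnr2 (permutation p = 0.0265, n = 15), and without replicate 2 the slopes were 0.52 and 0.53, with Pearson correlations of -0.906 and -0.931.

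**Figure D3:**
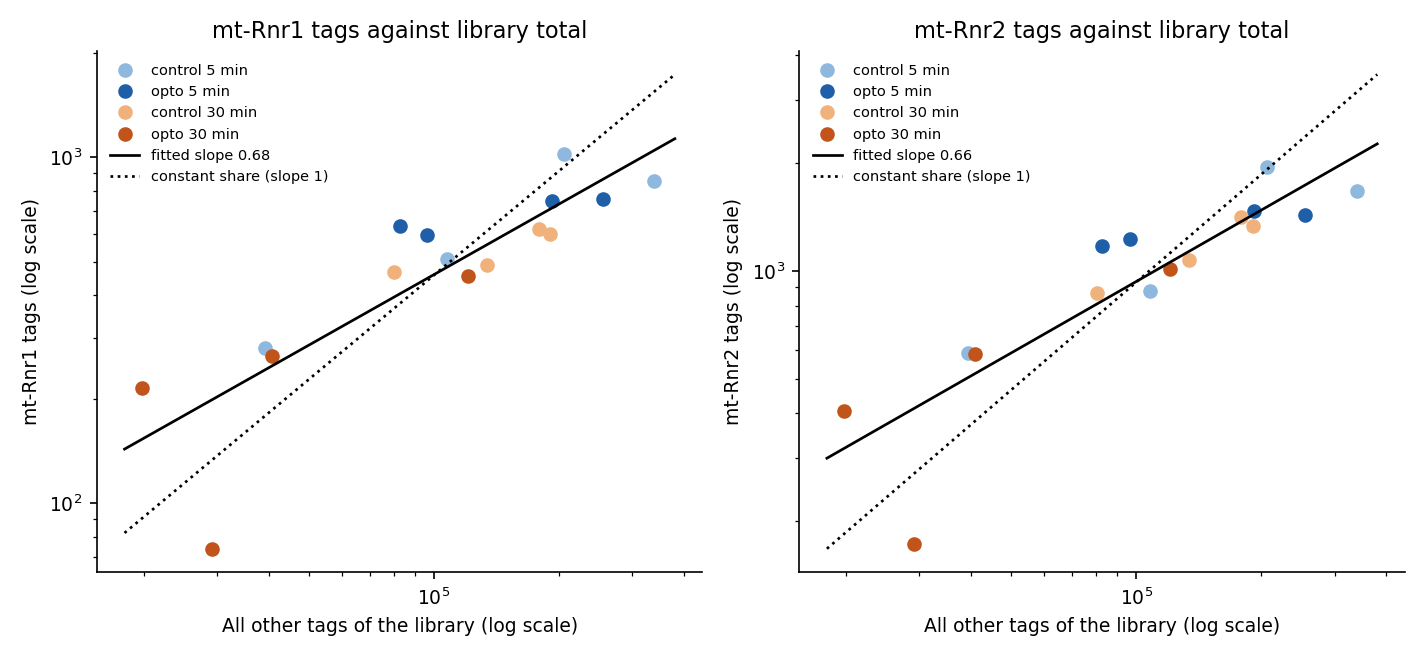
Tags of mt-Rnr1 (left) and mt-Rnr2 (right) against all other tags of the library, on log axes, for the 16 Cre-positive libraries coloured by group. Solid lines are the fitted slopes of 0.68 and 0.66, and dotted lines the slope of 1 that a constant share gives. Opto 30 min replicate 2, with 74 and 173 tags, lies farthest below the solid line.

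The dependence on the library total was then fitted for all 2871 tested transcripts with edgeR. The slope was 0.61 for mt-Rnr1 (SE 0.08, 95% interval 0.44 to 0.79, edgeR adjusted p = 0.0106) and 0.61 for mt-Rnr2 (SE 0.08, 95% interval 0.45 to 0.77, edgeR adjusted p = 0.00589), against a median of 1.00 over the tested transcripts. Both rRNAs were among the 48 transcripts, 1.67% of those tested, whose share fell with the total, and 2.09% and 2.02% of the tested transcripts had a lower slope. With a mean for each group in the fit the slopes were 0.49 for mt-Rnr1 (SE 0.10, edgeR adjusted p = 0.00841) and 0.52 for mt-Rnr2 (SE 0.10, edgeR adjusted p = 0.0111), and both were among the 15 transcripts (0.522%) that passed with a falling share. The edgeR calls depended on single libraries, whereas the slopes stayed below 1 without any 1 of the 16. Without opto 30 min replicate 1 the edgeR adjusted p was 0.137 for mt-Rnr1 and 0.0798 for mt-Rnr2, with 8 transcripts falling in all, and with group means it was 0.0568 for both. Without control 5 min replicate 1 it was 0.0600 for mt-Rnr1, and with group means 0.0728 for mt-Rnr1 and 0.0918 for mt-Rnr2. With group means the edgeR adjusted p was also above 0.05 for both without opto 30 min replicate 3, at 0.0555, and for mt-Rnr2 without opto 5 min replicate 1, at 0.0578, and without control 5 min replicate 2, at 0.0862.

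**Figure D4:**
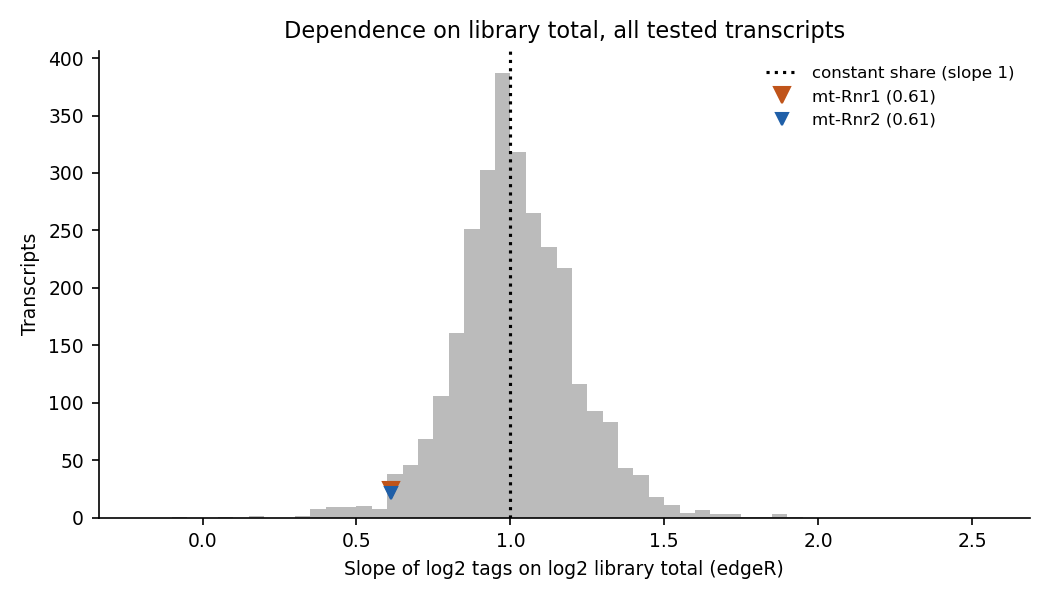
Slope of log2 tags on log2 library total for the 2871 tested transcripts, fitted with edgeR over the 16 Cre-positive libraries, as a histogram of the number of transcripts per slope. The dotted line marks a constant share, and triangles mark mt-Rnr1 and mt-Rnr2, both at 0.61, in the lower tail of a distribution with a median of 1.00.

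The balance of the large and the small subunit rRNA does not involve the library total, since both are counted in the same library. mt-Rnr2 had 1.73 to 2.34 times the tags of mt-Rnr1 in the 16 libraries, with a median ratio of 2.02, and the ratio of the gene lengths is 1.66. The tag ratio was above the length ratio in 16 of 16 libraries, and its 95% Wilson interval lay above it in 14. Per length, mt-Rnr1 had a median of 4450 tags per kilobase per 1000000 library tags (2625 to 11006) and mt-Rnr2 of 5176 (3097 to 12577). Per length, mt-Rnr2 was thus 1.05 to 1.41 times as high as mt-Rnr1. The ratio had no detectable relation to the library total, at a Pearson r of -0.129 (permutation p = 0.631, adjusted 0.758, n = 16) and a Spearman rho of -0.035 (permutation p = 0.900, adjusted 0.900).

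The ratio of mt-Rnr2 to mt-Rnr1 tags at 30 min was 1.89, 2.34, 2.24 and 2.21 in opto and 1.86, 2.22, 2.20 and 2.29 in control. In both groups replicate 1 was the low library. The log2 difference between opto and control was 0.02 (exact two-sided permutation p = 0.686, n = 4 per group), with means of 2.17 ± 0.192 and 2.14 ± 0.191 (SD, n = 4). At 5 min the ratio was 1.89, 2.06, 1.97 and 1.86 in opto and 1.95, 2.10, 1.73 and 1.91 in control, with means of 1.95 ± 0.0908 and 1.92 ± 0.151 (SD, n = 4). The log2 difference was 0.02 (exact two-sided permutation p = 0.829, n = 4 per group), so that at neither time was a shift of the ratio with activation detected.

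The ratio was also compared between the times, after its values were seen. It was 1.94 ± 0.116 at 5 min and 2.16 ± 0.178 at 30 min (SD, n = 8 each), a log2 difference of -0.15 (exact two-sided permutation p = 0.0151 with libraries as units). With opto and control averaged by replicate number, 4 against 4 units, the exact two-sided permutation p was 0.114, and the difference did not pass. These means were 1.88, 2.28, 2.22 and 2.24 at 30 min and 1.92, 2.08, 1.85 and 1.88 at 5 min, so that replicate 1 at 30 min lay within the range of the 5 min means. The ratio of all 8 libraries at 5 min was below the median of the 30 min libraries, 2.22, and replicate 1 of both 30 min groups overlapped with the 5 min libraries. The log2 difference was -0.15 within opto (exact two-sided permutation p = 0.114, n = 4 per group) and -0.15 within control (exact two-sided permutation p = 0.143, n = 4 per group), where 0.0286 is the smallest p possible. The time coincides with the label for new files here too. In noCre the ratio could be formed from more than 1 tag only in replicate 3, where it was 2.67 (95% Wilson interval 1.26 to 5.64), which covers all Cre-positive libraries.

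**Figure D5:**
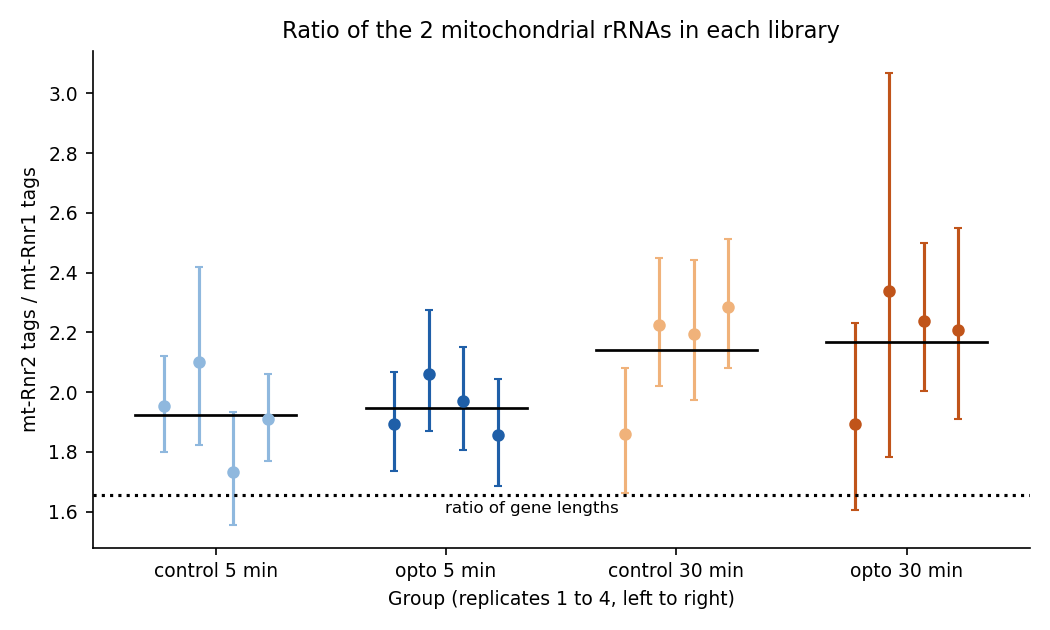
Tags of mt-Rnr2 divided by tags of mt-Rnr1 in each Cre-positive library, by group. Points are replicates 1 to 4 from left to right, bars 95% Wilson intervals and solid lines group means, and the dotted line is the ratio of the gene lengths, 1.66. Points at 5 min lie between 1.73 and 2.10 and points at 30 min between 1.86 and 2.34.

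Among the 2871 tested transcripts, the one whose log2 CPM (tags per 1000000, scaled by TMM) was most like that of mt-Rnr1 over the 16 libraries was mt-Rnr2, and the reverse was true as well (Pearson correlation 0.979). Next came ENSMUST00000031695 for mt-Rnr1 (Pearson correlation 0.794, 1 to 21 tags per library) and ENSMUST00000184437 for mt-Rnr2 (Pearson correlation 0.860, 5 to 38 tags per library). Both of these had an edgeR slope on the library total of 0.65. The median correlation over all other tested transcripts was -0.10 with mt-Rnr1 and -0.12 with mt-Rnr2. These correlations are descriptions, since all transcripts share the libraries and their depth.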

How the data were processed

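Each library has 1 deposited file, which per the file headers lists transcripts with raw FMRP CLIP tag counts. The smallest value is 1, so an unlisted transcript was taken as 0. The submitters' processing notes name cutadapt, STAR and mm10. Handling of duplicates, of tags with several matches and of isoforms is not given in the sources used here. Groups and replicate numbers came from the titles. Across transcripts, edgeR 4.0.16 in R 4.3.3 was run with TMM, filterByExpr and the quasi-likelihood test on the 16 Cre-positive libraries. Shares and ratios used log2 values with a pseudocount of 0.5 and permutation tests in Python 3.11.15 with scipy 1.17.1 (exact, or 100000 resamples for correlations over 12 or more libraries). Intervals are 95% Wilson intervals, or those of the edgeR fit. The share that 0 tags allow is 3 tags divided by the library total. The alternatives were other scaling, no filter, thinning to 20456 tags, DESeq2 1.42.0, depth as a covariate, the replicate block, other pseudocounts and leaving out libraries. The edgeR fits of depth for all transcripts, the comparison of the ratio between times and the means of same-numbered libraries were added after seeing the data. Test runs of the fits used simulated counts with a smaller spread between libraries than either rRNA had, so they do not cover that spread. The named transcripts are both rRNAs and, for each, the 2 with the highest correlation. The members and lists were chosen with earlier results of these data known. No table used here pairs other transcript IDs with genes, so lists of mitochondrial mRNAs, tRNAs, ribosomal proteins and cell type markers were not analysed here. In the tests, replicate numbers entered as pairs only in the alternatives with the replicate block or with same-numbered libraries averaged. The main tests took libraries as independent units. After subtracting group means, opto and control libraries with the same number correlated in 8 of 8 pairs. The values were 0.202 to 0.689 over the 334 transcripts that averaged 50 tags or more, and 0.0915 to 0.332 over all 2871. The p-values of the main tests leave out this likeness. Each 30 min and 5 min library held 64.8% to 70.9% of its tags in tested transcripts.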

Additional observations from a re-analysis of the deposited data

How the results depend on the processing

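Neither rRNA passed an adjusted p of 0.05 in any edgeR or DESeq2 comparison of activation or time under any alternative, while signs turned as follows, and the cause was not tested. With the library total as a covariate the log2 differences of mt-Rnr1 and mt-Rnr2 were -0.38 and -0.32 for opto against control at 30 min, -0.52 and -0.49 for the 30 min minus the 5 min response, and 0.69 and 0.51 for opto at 5 min against 30 min. With no filter on low counts they were -0.0087 and -0.026 for the response difference and 0.20 and 0.088 for opto at 5 min against 30 min, where the median of all transcripts itself moved to -0.58 and 0.25. Thinned to 20456 tags, mt-Rnr1 in the controls at 5 min against 30 min was -0.034. With the replicate block the log2 differences were 0.40 and 0.40 at 30 min, 0.11 and 0.12 at 5 min, and 0.29 and 0.27 for the response difference, and the block changed no call of either rRNA there. With means of same-numbered libraries as the replicate block, the slope of mt-Rnr1 on the library total was 0.58 and the ratio at 5 min against 30 min -0.15, and neither passed. The slope of mt-Rnr2 in that setting was 0.55, and its Pearson but not its Spearman correlation passed. Leaving out single libraries gave, for mt-Rnr1 and mt-Rnr2 in turn, 0.046 to 0.77 and 0.14 to 0.75 for opto against control at 30 min, -0.13 to 0.37 and -0.10 to 0.44 at 5 min, -0.079 to 0.64 and 0.015 to 0.63 for the response difference, -0.032 to 0.46 and -0.21 to 0.32 for the controls over time, -0.43 to 0.28 and -0.52 to 0.083 for opto over time, -1.41 to 0.13 and -2.54 to 0.58 for noCre, and slopes on the library total of 0.52 to 0.76 and 0.53 to 0.72. For the log2 ratio of mt-Rnr2 to mt-Rnr1 it gave -0.049 to 0.081 for opto against control at 30 min, -0.030 to 0.061 at 5 min, -0.18 to -0.13 for 5 min against 30 min and -1.13 to 0.45 for noCre against Cre-positive. For noCre, mt-Rnr1 was at 0.097 with a pseudocount of 1 and at -2.42 on the linear scale (exact permutation p = 0.0103), and mt-Rnr2 at 0.19 on the linear scale. The log2 values of noCre depend on the pseudocount given to libraries with 0 tags. The slope on the library total at 30 min alone was 0.69 and 0.73, and the ratio of mt-Rnr2 to mt-Rnr1 at 5 min against 30 min was -0.15 in opto alone and -0.15 in control alone, none of which passed with 8 libraries. Transcripts called numbered 0 to 9 at 30 min, 0 at 5 min, 0 to 5 for the response difference, 0 to 18 for the controls and 0 to 55 for opto over time. The number tested differed between settings, from 367 when thinned to 49900 with no filter. The 18 were of 3095 tested and the 55 of 3307. The fit to the libraries of a contrast alone is the same as the reported one for the response difference, which uses all 16. Depth limits noCre most, where 0 tags among 34 allow a share of up to 8.82%.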
